A study of Mus musculus with 4 samples.

Results

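The IgLON proteins are a small family of neural cell adhesion molecules of the immunoglobulin superfamily, and 4 of their genes, Opcml, Lsamp, Negr1 and Ntm, were followed here in newborn mouse heart valves with and without the chemokine receptor Cxcr7. All probe sets of the array annotated to one of these symbols alone were taken, which gave 8 of 45101 probe sets and 4 of 18193 genes: 2 for Opcml, 2 for Lsamp, 1 for Negr1 and 3 for Ntm. The family was chosen by the signal of Opcml, which was over 3-fold higher in Cxcr7-/- pools. It was thus selected on the genotype contrast itself, and the values below are a description with no test of the members. RNA came from leaflets of the aortic and pulmonary valves of neonates, on 4 Affymetrix arrays that each held a pool of 3 neonates. There were 2 Cxcr7-/- pools, with 4 to 6 leaflets per neonate, and 2 Control pools of wildtype littermates, with 6 leaflets per neonate. The labels call the pools biological replicates. They give no strain, sex or Cxcr7 allele, and the number of arrays limits the precision.

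IgLON proteins carry a short row of immunoglobulin domains on the outer face of the membrane, to which a glycosylphosphatidylinositol (GPI) anchor holds them. They bind each other between and along cell surfaces, in pairs of like or unlike members, and are best known in brain, where they act on neurite outgrowth and synapse formation. Opcml is the opioid-binding cell adhesion molecule, which is also known as a tumour suppressor in human ovarian epithelium. Lsamp is the limbic system-associated membrane protein, Negr1 is neuronal growth regulator 1 and Ntm is neurotrimin. In the RefSeq annotation Opcml and Ntm are next to each other on chromosome 9, with no other protein-coding gene between them. Lsamp lies on chromosome 16 and Negr1 on chromosome 3.

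The stretches before the transcription starts of the 3 members whose genotypes did not overlap on the arrays are shown because these genes went in opposite directions. Each is 250 bases long, read 5′ to 3′ up to the start from RefSeq, build GRCm38.p6. Capitals mark matches to a GC box (GGGCGG on either strand) or an E-box (CANNTG).
Opcml, chr9:27791049-27791298, plus strand: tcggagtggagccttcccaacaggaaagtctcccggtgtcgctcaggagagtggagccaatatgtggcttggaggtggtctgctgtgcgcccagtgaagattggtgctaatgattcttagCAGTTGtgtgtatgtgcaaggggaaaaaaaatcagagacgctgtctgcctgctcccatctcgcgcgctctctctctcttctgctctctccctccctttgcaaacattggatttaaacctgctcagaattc
Lsamp, first of 2 listed starts, chr16:39984114-39984363, plus strand: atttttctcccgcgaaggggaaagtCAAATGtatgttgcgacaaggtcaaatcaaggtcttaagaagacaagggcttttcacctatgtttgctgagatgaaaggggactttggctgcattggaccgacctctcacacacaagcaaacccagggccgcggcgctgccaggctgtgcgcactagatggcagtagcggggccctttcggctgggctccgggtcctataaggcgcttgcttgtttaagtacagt
Negr1, chr3:156561544-156561793, plus strand: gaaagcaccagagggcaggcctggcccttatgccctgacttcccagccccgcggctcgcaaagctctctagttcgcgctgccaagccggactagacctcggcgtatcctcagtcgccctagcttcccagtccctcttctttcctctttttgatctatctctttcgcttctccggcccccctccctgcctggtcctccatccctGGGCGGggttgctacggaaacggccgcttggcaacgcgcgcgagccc
The Opcml stretch held 8 CpG dinucleotides and 1 E-box at 52.0% G and C, and the Lsamp stretch held 12 CpG and 1 E-box at 53.2%. The Negr1 stretch held 19 CpG and 1 GC box at 63.6%. None of the 3 held TATAAA on either strand, and no GC box overlapped an E-box in them. Over 32841 promoter entries of the same length the medians were 6 CpG and 52.4% G and C. A GC box was in 32.7% of those entries, an E-box in 66.2% and TATAAA in 12.4%. The arrays do not show which start was used in the leaflets, and a match of letters is no evidence of binding.

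The targeted gene was far lower in both pools labelled as lacking it, but kept a signal above the array median in one of them. Cxcr7, listed as Ackr3, encodes an atypical chemokine receptor that takes up CXCL12, and gave 28.3 and 328 in Cxcr7-/- against 4936 and 5698 in Control. Cxcr7-/- replicate 2, where the median signal of the array was 92.5, was thus 11.6-fold above Cxcr7-/- replicate 1. It was the Cxcr7-/- pool nearer to Control in Opcml, Lsamp and Negr1, but the farther one on the Ntm probe set 1426283_at. A link of these values to the Cxcr7 signal was not tested. A filter on dim values kept the 22518 probe sets whose mean log2(signal + 22) over the pools was above 6.77, the median. Correlations between arrays over these probe sets ran between 0.922 and 0.956. Cxcr7-/- replicate 2 and Control replicate 1 correlated at 0.953, closer than the 0.931 of the Control pools with each other. The Actb ratio of 3' to 5' signal was 11.7 to 15.5 in Cxcr7-/- pools and 19.1 to 20.2 in Control pools, and the Gapdh ratio was 12.6 and 8.20 in Cxcr7-/- against 12.7 and 24.2 in Control, where replicate 2 stood apart. The part of these ratios in the values below was not tested. With all 4 arrays, 0 of the 22518 probe sets kept passed limma's test (0% at an adjusted p under 0.05, smallest adjusted p 0.400). At an unadjusted p under 0.05 limma gave 3.94% of them as higher and 6.18% as lower.

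Both Opcml probe sets had their 2 highest signals in Cxcr7-/- pools. On the first, 1435612_at, Cxcr7-/- pools had a signal of 1040 and 692, against 283 and 214 in Control pools. The group means were 866 ± 246 in Cxcr7-/- and 249 ± 48.5 in Control (SD, n = 2 each), a ratio of 3.49. On the second, 1457446_at, it was 1063 and 600 in Cxcr7-/- against 197 and 302 in Control, with a ratio of means of 3.33. Cxcr7-/- replicate 1 was the highest pool on both probe sets. The order of the Control pools turned between the probe sets, so that order was within the error of a single probe set. The smallest of the 4 pool-by-pool ratios was 2.45 on the first probe set and 1.99 on the second, and the largest were 4.86 and 5.39. Within a genotype the pools were 1.77-fold apart in Cxcr7-/- and 1.53-fold in Control on the second probe set, the more variable of the pair. On the scale of log2(signal + 22) the difference was 1.70 ± 0.34 (SE of the limma fit) for the first probe set and 1.62 ± 0.38 for the second. These are RNA levels of whole leaflets, in which a change in the number of cells of a type and a change in RNA per cell cannot be told apart.

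**Figure D1:**
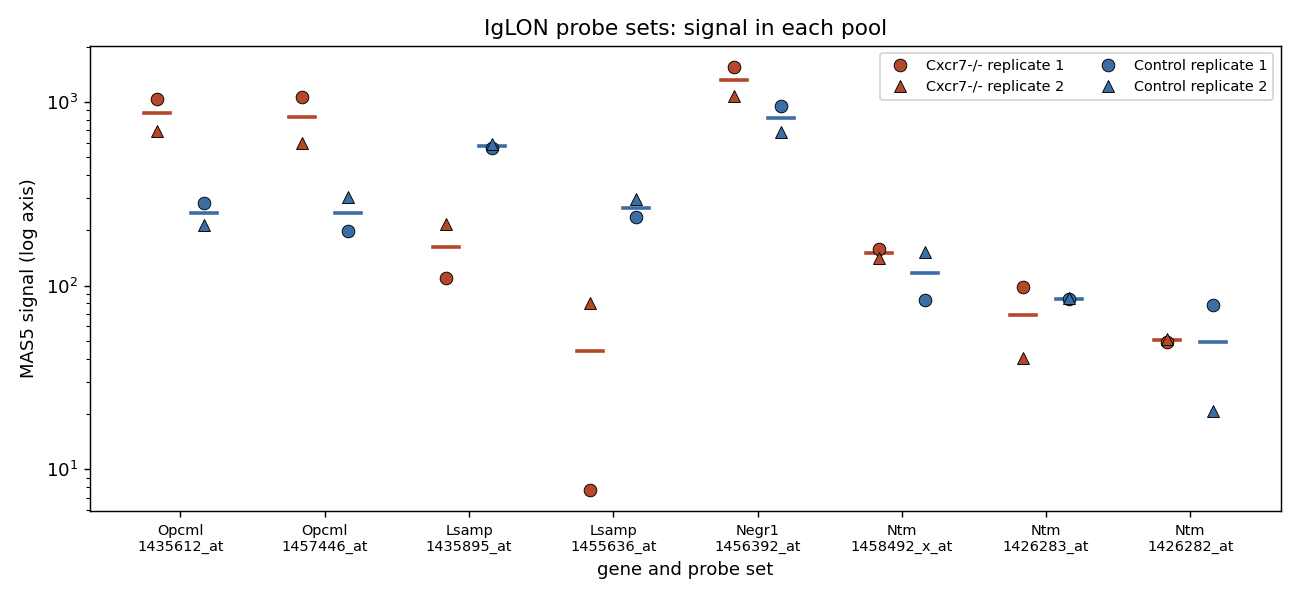
MAS5 signal (log axis) of each IgLON probe set in the 4 pools, Cxcr7-/- left of Control, with circles for replicate 1, triangles for replicate 2 and bars for the means of 2 pools. The genotypes do not overlap for Opcml (Cxcr7-/- higher), Lsamp (Cxcr7-/- lower) and Negr1 (Cxcr7-/- higher), and overlap on all 3 probe sets of Ntm.

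Lsamp went the other way, on both of its probe sets. On 1435895_at Cxcr7-/- pools had a signal of 110 and 216, against 565 and 593 in Control pools. The means were 163 ± 75.2 in Cxcr7-/- and 579 ± 20.3 in Control (SD, n = 2 each), so that Control was 3.55-fold higher. The Control pools were 1.05-fold apart and the Cxcr7-/- pools 1.97-fold apart. All 4 pool-by-pool ratios put Control 2.61-fold to 5.40-fold higher, and the log2 difference was -1.76 ± 0.38. On 1455636_at Cxcr7-/- pools had a signal of 7.69 and 80.8, against 236 and 295 in Control pools. The lower of these lies under the pseudocount of 22, so the size of the log2 difference, -2.37 ± 0.60, depends on the pseudocount. That difference was -3.40 without a pseudocount and -1.47 when it was made 4 times larger. Without Cxcr7-/- replicate 1 it was -1.48, and without Cxcr7-/- replicate 2 it was -3.27. Both Cxcr7-/- pools stayed under both Control pools at this probe set, and replicate 1 was the lower pool on both.

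Negr1 had 1 probe set, 1456392_at, at 1550 and 1073 in Cxcr7-/- pools against 953 and 690 in Control pools. The genotypes did not overlap, but the nearest pools, Cxcr7-/- replicate 2 and Control replicate 1, were 1.13-fold apart, less than the 1.44-fold between the Cxcr7-/- pools and the 1.38-fold between the Control pools. The ratio of means was 1.60 and the log2 difference 0.66 ± 0.31. It was 0.39 without Cxcr7-/- replicate 1 and 0.43 without Control replicate 2. With over 3-fold as the mark by which the family was picked, the Opcml probe sets lay just above it at 3.49 and 3.33, and Negr1 was the next below.

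Ntm, the chromosomal neighbour of Opcml, overlapped between genotypes on all of its probe sets. Its brightest, 1458492_x_at, had a signal of 158 and 142 in Cxcr7-/- against 83.5 and 152 in Control, a log2 difference of 0.35 ± 0.41. Without Control replicate 1 the difference was -0.014. The suffix x marks probes that may also bind other transcripts, and the probe sets used below for Myom2, Egfl7, Tnnt2 and C1qb carry it too. The probe set 1426283_at read 98.1 and 40.2 in Cxcr7-/- against 84.3 and 85.3 in Control, and 1426282_at read 49.4 and 51.4 in Cxcr7-/- against 78.1 and 20.8 in Control. Both 1426283_at and 1426282_at were too dim for the filter, and their log2 differences were -0.31 ± 0.58 and 0.14 ± 0.62 in the fit of all probe sets. These SEs were close to the difference of 0.66 seen for Negr1, and whether such a difference could be detected on these probe sets was not tested. Iglon5, the remaining gene of the family, had 2 probe sets under the filter, with no signal above 91.9 in any pool and overlapping genotypes.

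**Figure D2:**
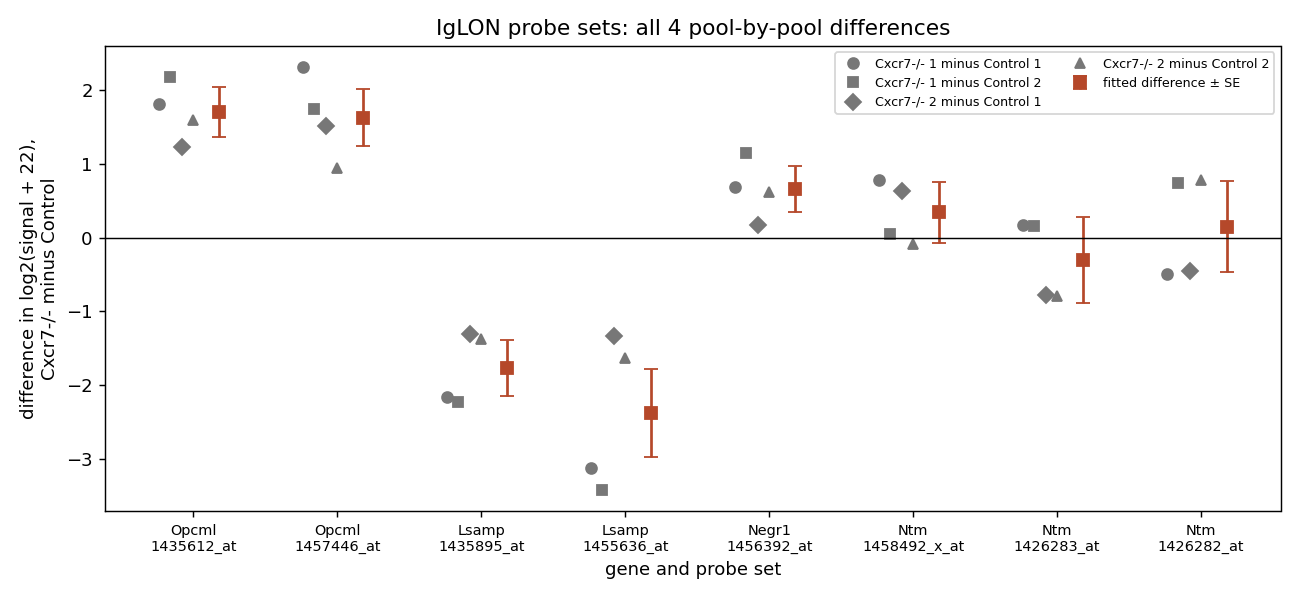
Differences in log2(signal + 22), Cxcr7-/- minus Control, for the 4 pairs of pools (grey) and for the limma fit with its SE (red), by probe set. All 4 differences are above 0 for Opcml and Negr1 and below 0 for Lsamp, and they fall on both sides of 0 for each Ntm probe set.

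In all, 6 of the 8 member probe sets passed the filter on dim values. Of the 8, 3 were higher in both Cxcr7-/- pools, 2 were lower in both and 3 overlapped. Among all 45037 probe sets that were not array controls, 17.1% were higher in both Cxcr7-/- pools and 21% were lower in both. Because the contrast chose the family, these shares are given only as a scale. At least 2-fold apart in signal in all 4 pool-by-pool comparisons were 1435612_at of Opcml, on the higher side, and both Lsamp probe sets, on the lower side. Among the 22518 probe sets kept, 0.413% were that far apart on the higher side and 1.23% on the lower.

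Since Opcml chose the family, its distance from the other members within each pool is given as a description only. Opcml minus Lsamp, at their brightest probe sets, was 3.01 and 1.58 log2 units in Cxcr7-/- pools and -0.94 and -1.38 in Control pools. The means differed by 3.46 between genotypes on the scale of log2(signal + 22), and the size depends on the pseudocount. For Opcml minus Negr1 the values were -0.57 and -0.62 in Cxcr7-/- pools and -1.68 and -1.59 in Control pools, a difference of 1.04. These distances describe unequal change, and levels of different probe sets cannot be ranked against each other.

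**Figure D3:**
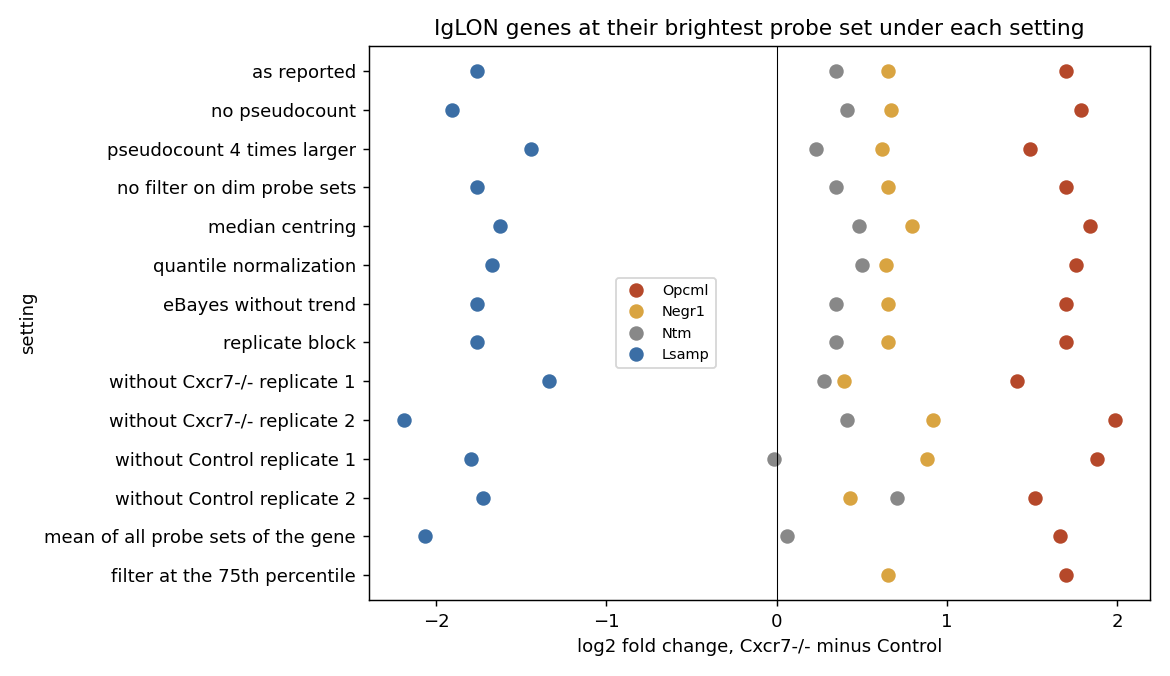
Log2 fold change, Cxcr7-/- minus Control, of each IgLON gene at its brightest probe set under each setting, with the crossed replicate block left out. The mean over probe sets is shown as a further setting for Opcml, Lsamp and Ntm. Opcml stays between 1.41 and 1.99, Negr1 between 0.39 and 0.92 and Lsamp between -2.19 and -1.33, while Ntm lies between -0.014 and 0.70; Lsamp and Ntm have no value under the stricter filter.

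Other neural adhesion molecules of the immunoglobulin superfamily were mostly too dim to measure. Of 22 listed genes 21 were on the array and 7 had a probe set that passed the filter, and none of the contactins, the GPI-anchored relatives of the IgLONs, was among these. Of the 7 genes, 4 were positive, as 50.3% of all genes were, and they had a median log2 fold change of 0.058, against a median of 0.0048 over all 11260 genes with a kept probe set. None passed limma's adjusted threshold, and 1 was higher and 0 were lower at an unadjusted p under 0.05, which 3.93% of all genes were on the higher side and 4.03% on the lower. That gene was Thy1, a GPI-anchored glycoprotein of neurons, fibroblasts and other cells, at 714 and 596 in Cxcr7-/- pools against 228 and 384 in Control pools (1.08 ± 0.35, limma adjusted p = 0.435). Its genotypes did not overlap.

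Genes whose proteins are reported to bind or cut IgLON proteins had small differences. Of 9 listed, 8 were measured, 6 of them with positive values, with a median of 0.16 and a range of -0.14 to 0.41 on the log2 scale. None had an unadjusted p under 0.05. Epha2, an ephrin receptor kinase that human OPCML binds, read 156 and 154 in Cxcr7-/- pools against 81.4 and 149 in Control pools (0.41 ± 0.41). Fgfr1, a fibroblast growth factor receptor, read 745 and 547 in Cxcr7-/- against 440 and 558 in Control (0.35 ± 0.31), and the genotypes overlapped. Of 16 genes that make, attach or remodel GPI anchors, 14 were measured, with a median of 0.16, and 0 were higher and 1 lower at an unadjusted p under 0.05. Pigo, which encodes an enzyme that adds ethanolamine phosphate to the anchor, read 1063 and 891 in Cxcr7-/- pools against 1545 and 1571 in Control pools (-0.67 ± 0.26, limma adjusted p = 0.465).

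The genes nearest to Opcml in pattern were found among 11256 other genes by the root mean square difference of log2 values, each gene centred on its own mean over the 4 pools. They were Cd68, a lysosomal glycoprotein of macrophages, at 0.12 log2 units, and H2-Eb1, which encodes a chain of MHC class II, at 0.15. Chn2, a Rac GTPase-activating protein, Npl, an enzyme of sialic acid breakdown, and Fcrls, an Fc receptor-like protein of microglia, followed at 0.17, 0.17 and 0.18. Cd68 read 381 and 246 in Cxcr7-/- pools against 93.9 and 86.5 in Control pools. H2-Eb1 read 807 and 686 in Cxcr7-/- against 209 and 176 in Control. Nearest to Lsamp were Dcun1d1, a factor of cullin neddylation, at 0.10, Myom2, which encodes a protein of the sarcomere's M-band, at 0.15, and Lrrc15, a leucine-rich repeat membrane protein, at 0.17. Myom2 read 1108 and 2346 in Cxcr7-/- pools against 4300 and 5445 in Control pools. The Golgi transport gene Golt1b, the splicing factor gene Plrg1 and the syntrophin gene Sntg2 were nearest to Negr1, at 0.035 to 0.053. Pole3, a DNA polymerase subunit gene, Hmgb3, a chromatin protein gene, and Afap1l1, an actin filament-associated gene, were nearest to Ntm, at 0.012 to 0.019. Opcml was chosen by its genotype difference, so this search returns genes with a like difference, from 1.36 for Npl to 1.84 for H2-Eb1. With 4 pools, nearness is no evidence of shared cells or regulation. The distance is not scaled to the size of a gene's change, so distances cannot be compared between members.

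**Figure D4:**
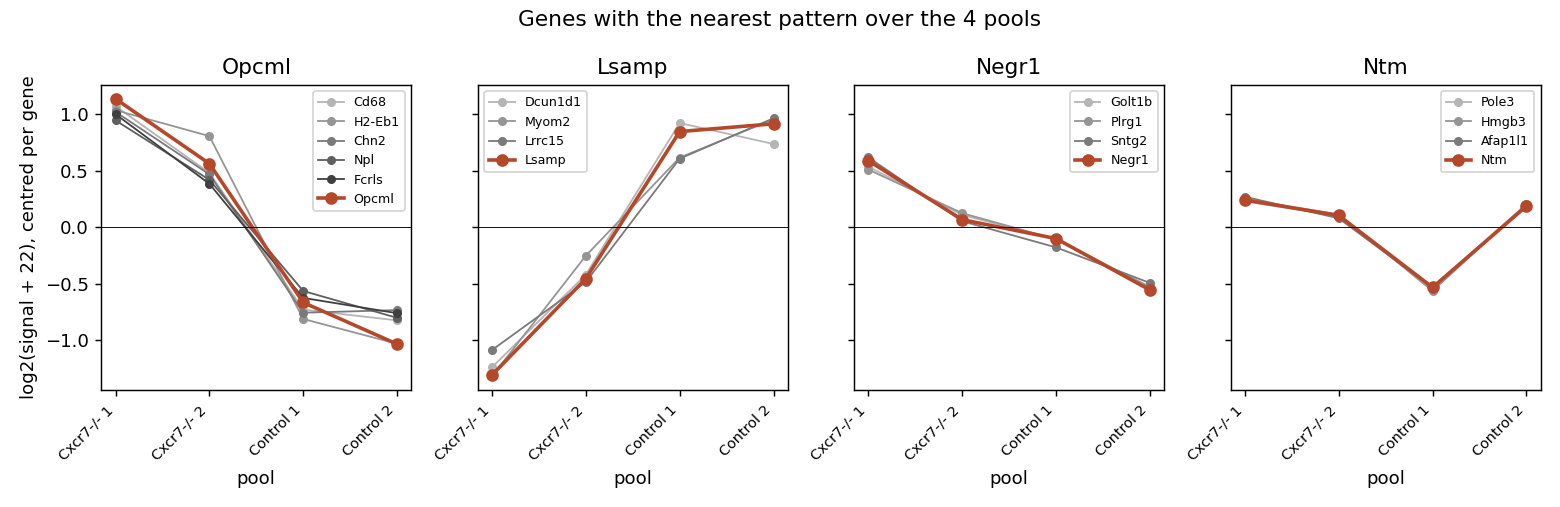
Log2(signal + 22), centred per gene, over the 4 pools for each IgLON gene (red) and the genes nearest to it (grey; 5 for Opcml and 3 for each other). Cd68 lies nearest to Opcml at 0.12 log2 units, and Dcun1d1 nearest to Lsamp at 0.10.

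Of 11 gene lists, the summed signals of 5, all of them cell type marker lists, did not overlap between genotypes. No marker passed limma's adjusted threshold (smallest adjusted p 0.400 over all probe sets kept). As a scale, 17.1% of all probe sets were higher in both Cxcr7-/- pools and 21% lower in both. At an unadjusted p under 0.05 limma gave 3.93% of all genes as higher and 4.03% as lower. A sum follows its brightest genes, here Csf1r among macrophage markers, Gap43 among neuron markers and Actc1 among cardiomyocyte markers. None of these genes was at an unadjusted p under 0.05 in the limma fit. Of 8 measured neuron markers among 17 listed, 5 were positive and 3 negative, with a median of 0.51, and 3 were higher at an unadjusted p under 0.05. Their summed signal was 2673 to 3062 in Cxcr7-/- pools and 1893 to 1905 in Control pools. Prph, a neuronal intermediate filament, read 435 and 370 in Cxcr7-/- pools against 95.9 and 109 in Control pools (1.77 ± 0.34). Tubb3, the neuronal tubulin, was at 1.10 ± 0.33 and Stmn2, a tubulin-binding protein of growing axons, at 0.88 ± 0.33. The 3 negative neuron markers were Uchl1 at -0.30, Elavl4 at -0.22 and Syt1 at -0.015, all with overlapping genotypes. The neuron markers Snap25, Nefl, Nefm, Th, Dbh, Chga, Chgb and Scg2 were under the filter, with no signal above 111. Of 10 macrophage markers, all 10 were positive, with a median of 0.76, and 6 were higher at an unadjusted p under 0.05. Their summed signal was 18828 to 20465 in Cxcr7-/- pools and 11215 to 13581 in Control pools. Mrc1, the mannose receptor, was at 1.75 ± 0.28, Cd68 at 1.55 ± 0.38, the coagulation factor subunit F13a1 at 1.43 ± 0.32 and the complement gene C1qb at 0.80 ± 0.27. The part of neurons or macrophages in the Opcml values was not tested.

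On the side of Lsamp, all 10 cardiomyocyte markers were negative, with a median of -0.92, and 7 were lower at an unadjusted p under 0.05. Their summed signal was 64532 to 97349 in Cxcr7-/- pools and 115341 to 166263 in Control pools. It was lowest in Cxcr7-/- replicate 1, as were Lsamp and the smooth muscle sum. The endothelial sum was lowest in Cxcr7-/- replicate 2. Among Control pools the cardiomyocyte sum differed 1.44-fold, the smooth muscle sum 1.33-fold and the endothelial sum 1.17-fold. Lsamp differed 1.05-fold on 1435895_at and 1.25-fold on 1455636_at. Neither the order of 2 pools nor these spreads can tell cell types apart. The markers named by smallest p were the oxygen carrier Mb (-1.67), the myosin heavy chain Myh6 (-1.54) and the troponins Tnni3 (-1.55) and Tnnt2 (-0.74). Actc1, the brightest of the list, was at -0.26. Myh7 at -1.00 and Nppa at -0.16 overlapped between genotypes. All 7 measured smooth muscle markers of 8 listed were negative (median -0.71, 4 lower at an unadjusted p under 0.05), with summed signal of 15372 to 19471 in Cxcr7-/- pools and 23586 to 31275 in Control pools. Those named were the coactivator Myocd (-1.70), desmin, Des (-1.32), Tagln (-0.71) and the actin Acta2 (-0.61). Cnn1 and Smtn overlapped between genotypes, and Myh11 was under the filter, with no signal above 177. Of 10 endothelial markers 8 were negative (median -0.49, 4 lower at an unadjusted p under 0.05), with sums of 10271 to 11648 in Cxcr7-/- pools and 16093 to 18904 in Control pools. Here the tight junction gene Cldn5 was at -1.73, Egfl7 at -1.14, Vwf at -0.83 and the VEGF receptor gene Kdr at -0.72. The 2 positive markers were Pecam1 at 0.058 and Esam at 0.16. Tek was at -0.066 and Emcn at -0.10, and all of Pecam1, Esam, Tek and Emcn overlapped between genotypes. No marker passed limma's adjusted threshold, and the part of these cells in the Lsamp values was not tested.

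Markers of the remaining cell types overlapped between genotypes in their sums. Fibroblast markers, which stand for the interstitial cells of the leaflet, were 6 of 10 positive with a median of 0.073, and sums of 322293 to 332353 in Cxcr7-/- pools and 240894 to 337604 in Control pools. Of these, 0 were higher and 1 lower at an unadjusted p under 0.05, the PDGF receptor gene Pdgfra at -0.57 ± 0.24. Schwann cell markers (6 measured of 10 listed, 3 positive) had a median of -0.044, which was 0.093 after median centring, with Fabp7 at -0.59 ± 0.43 and Ngfr at 0.51 ± 0.45. Their sums were 1191 to 1337 in Cxcr7-/- pools and 1182 to 1487 in Control pools, and the glial factor Sox10 read 117 and 114 in Cxcr7-/- against 112 and 98.3 in Control. Melanocyte markers (7 measured, 4 positive) had a median of 0.096, with Kit at 0.37 ± 0.36 and Tyr at 0.48 ± 0.53, and sums of 9088.5 to 21756 in Cxcr7-/- pools and 11044 to 16333 in Control pools. None of the Schwann cell or melanocyte markers had an unadjusted p under 0.05.

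**Figure D5:**
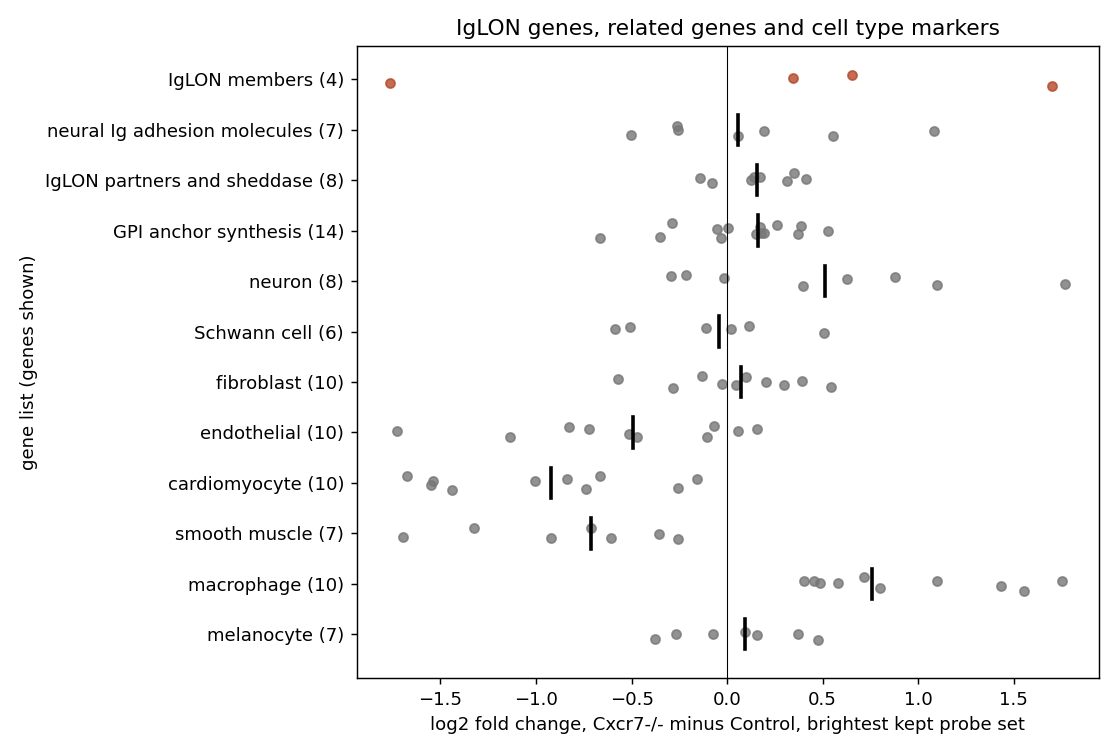
Log2 fold change, Cxcr7-/- minus Control, of each gene at its brightest kept probe set (points) with the list median (black bar), for the 4 IgLON genes (red), related genes and cell type markers (grey). The IgLON genes run from -1.76 for Lsamp to 1.70 for Opcml, while partner genes run from -0.14 to 0.41.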

How the data were processed

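Signal was measured on 4 arrays, 2 per genotype, each from 50 ng of total RNA amplified in 2 rounds, per the labels' protocols. The authors deposited linear signal intensity values, 1 per probe set and array, made with MAS5 in Affymetrix Expression Console, per the submitters' processing notes. No software version, detection call or build is given in the sources used here. The trimmed mean (middle 96%) was 500.003 on each array. Background subtraction leaves dim probe sets with large relative errors, and a second amplification lowers signal far from the 3' end.

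After 64 control probe sets were set aside, 45037 remained (34945 with 1 gene symbol in the platform annotation, 932 with several, 9160 with none). Values were taken as log2(signal + 22), 22 being their 25th percentile, and probe sets with a mean above the median were kept. The genotype contrast was fitted with limma 3.58.1 under R 4.3.3 (eBayes with trend, two-sided, Benjamini-Hochberg over the 22518 kept). An exact permutation test of 2 against 2 pools cannot give a p below 0.333 and was not used.

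The members and lists were chosen with earlier results of these data known. Named were all member probe sets. Of each list, up to 4 genes at an unadjusted p under 0.05 were named, or else the 2 with the smallest p. Named too were the 5 genes nearest to Opcml and the 3 nearest to each other member. Other genes named were chosen after their values were seen. They were Iglon5, Sox10, Csf1r, Gap43, Tek, Emcn, Actc1, Myh7, Nppa, Myh11, Cnn1 and Smtn. Neuron markers under the filter, and neuron and endothelial markers of opposite sign to their list, were also among them. Alternatives were other pseudocounts, filters and scalings, no variance trend, a replicate block, the mean over probe sets, and each pool left out.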

Additional observations from a re-analysis of the deposited data

How the results depend on the processing

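With 2 pools per genotype, the median standard error over the probe sets kept was 0.34, against a median absolute log2 fold change of 0.31. The number of probe sets past the adjusted threshold was 0 under other pseudocounts, filters and scalings, without a variance trend and with the replicate block. It was 8 without Cxcr7-/- replicate 2 and 705 without Control replicate 1, so that the range with a pool left out was 0 to 705. With a pool left out, the lone pool of its genotype is assumed to vary like the pools of the other. The pairing of replicate numbers is not given by the labels. Deviations of same-numbered pools correlated at -0.26. With the numbers crossed, an alternative chosen after seeing the data, 5 probe sets passed. Neither block moves a fold change.

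Opcml, Lsamp and Negr1 kept their direction under each alternative that gave a value, but only the scalings could have reversed it. For each of these genes, all pool-by-pool differences had the same sign. Leaving out a pool, another pseudocount or averaging probe sets cannot reverse that. The filters, variance trend and blocks did not move these fold changes. Median centring and quantile normalization gave 1.84 and 1.75 for Opcml, -1.62 and -1.67 for Lsamp and 0.79 and 0.64 for Negr1. Opcml was also chosen by its difference. With a pool left out, Opcml ran from 1.41 to 1.99, Lsamp from -2.19 to -1.33, Negr1 from 0.39 to 0.92 and Ntm from -0.014 to 0.70. The count of member probe sets higher in every remaining Cxcr7-/- pool than in every remaining Control pool ran from 3 to 5. With fewer pools such a separation is easier to reach, and its share over all probe sets was not computed. Lsamp and Ntm have no value at the stricter filter. Median centring moved the median of all probe sets kept to 0.12, against -0.019 without it, since it added 0.14 to every log2 fold change. That constant was larger than the spread between pools of a genotype for the medians of 3 lists and turned the sign of the Schwann cell median. These medians were then 0.30 for GPI anchor synthesis, 0.29 for IgLON partners, 0.65 for neuron and 0.093 for Schwann cell markers. The Schwann cell median was 0.024 after quantile normalization. It was -0.72 for endothelial markers at the stricter filter and -0.26 for neural adhesion molecules without a filter, where dimmer genes enter.

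With a pool left out, the list medians ran from -1.35 to -0.54 for cardiomyocyte, -0.75 to -0.21 for endothelial, -0.86 to -0.57 for smooth muscle and 0.67 to 1.00 for macrophage markers. They ran from 0.37 to 0.85 for neuron, -0.16 to 0.070 for Schwann cell, -0.051 to 0.24 for fibroblast and -0.49 to 0.61 for melanocyte markers. For neural adhesion molecules they ran from -0.065 to 0.17, for IgLON partners from 0.033 to 0.32 and for GPI anchor synthesis from -0.013 to 0.15. The cause of these shifts was not tested.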
